A study of Mus musculus with 43 samples.

Results

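The genes described here are the nuclear-encoded subunits of the mitochondrial respiratory chain and ATP synthase in female mouse kidney, along the proximal tubule. They were taken by symbol from the authors' expression table: the Nduf genes of complex I (Nduf followed by a, b, c, s or v and a digit), Sdha to Sdhd of complex II, the Uqcr genes and Cyc1 of complex III, Cox4 to Cox8 of complex IV and the Atp5 genes of complex V, leaving out symbols marked as pseudogenes. The rule found 90 of the 54532 genes listed. By known function, 75 are subunits used in most tissues (35 in complex I, 4 in complex II, 9 in complex III, 11 in complex IV and 16 in complex V), 8 are tissue isoforms of complex IV subunits, and 7 are paralogues, related factors or a repeated symbol. Ndufa4 was counted in complex IV, where its protein is now placed, and Ndufab1 falls outside the rule.

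The study separated the proximal tubule by hand dissection into segments S1, S2 and S3 to compare gene expression and chromatin along the tubule. The mice were C57BL/6 animals from Taconic, 6 to 8 weeks old, with no other treatment named in the labels, and each sample held 2 to 5 tubules. The expression values stand for 6 female S1 libraries, 6 female S2 libraries and 7 female S3 libraries, but the table gives 1 TPM value (a length-corrected transcript level, scaled to the same total in each column) for each gene and segment. If each number in the sample titles stands for 1 animal, the S1 libraries come from 2 animals, the S2 libraries from 3 and the S3 libraries from 4. S1 and S2 share no such number. There is thus no replicate spread, no p-value and no known depth behind any difference below.

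The respiratory chain sits in the inner mitochondrial membrane. Complexes I and II pass electrons from NADH and succinate to ubiquinone, complex III passes them to cytochrome c, complex IV hands them to oxygen, and complex V makes ATP with the proton gradient that complexes I, III and IV build. Most subunits are encoded in the nucleus and imported, while a few core subunits are encoded in mitochondrial DNA. Proximal tubule cells rely on this machinery to drive the sodium pump that powers reabsorption.

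Markers of the proximal tubule were present in all 3 segments. Hnf4a, a transcription factor of this epithelium, had 112.2 TPM in S1, 117.2 TPM in S2 and 136.3 TPM in S3. The 4 markers summed to 10542, 2634 and 472.1 TPM in that order. That fall came from the phosphate transporter Slc34a1, at 10241, 2227 and 17 TPM. Lrp2 (143, 228.3 and 259.1 TPM), Cubn (46, 61.8 and 59.7 TPM) and Hnf4a were instead lowest in S1. S1 and S3 markers matched their labels, and S2 resembled S3 in them. The 4 S1 markers summed to 4722 TPM in S1, 60.1 TPM in S2 and 40.0 TPM in S3, and Slc5a2, the glucose transporter of S1, stood at 2808 TPM in S1, 1.3 TPM in S2 and 0.5 TPM in S3. The 4 S3 markers summed to 14.0 TPM in S1, 2809 TPM in S2 and 4785 TPM in S3. Markers of other cell types were not even across the segments: the 7 endothelial markers summed to 67.6 TPM in S1, 633 TPM in S2 and 253.5 TPM in S3, the 6 immune markers to 2.0, 41.7 and 49.1 TPM, mostly from Csf1r in S2 and S3, the 6 stromal markers to 2.0, 15.9 and 1.6 TPM, the 7 smooth muscle and pericyte markers to 1.3, 10.5 and 1.7 TPM, and the 4 podocyte markers to 1.7, 14.4 and 3.6 TPM, mostly from Podxl. The 4 markers of the thick ascending limb summed to 0.7, 21.5 and 30.3 TPM, nearly all from Umod in S2 and S3, the 4 of the distal convoluted and connecting tubule to 1.4, 2.8 and 3.5 TPM, the 6 of the collecting duct to 28.8, 6.9 and 0.5 TPM, mostly from Aqp3, and the 4 of red cells to 0.3, 0.9 and 0.2 TPM, always in the order S1, S2, S3.

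The respiratory genes were among the most abundant mRNAs of all 3 segments. The 90 members summed to 108406 TPM in S1, 75608 TPM in S2 and 86559 TPM in S3, which is 10.8%, 7.56% and 8.66% of each segment's total. Of the 100 genes with the highest mean TPM in the table, 25 were members. At least 1000 TPM was reached by 38 members in S1, 24 in S2 and 27 in S3, out of 126, 98 and 115 genes at that level. At least 100 TPM in every segment was found for 73 members, and 5 stayed below 1 TPM everywhere: Cox4i2, Cox8c, Ndufa11b, Ndufb4c and a second identifier of Atp5o, of which Ndufb4c and that identifier were listed at 0 throughout.

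As deposited, the common subunits were highest in S1 and lowest in S2 for the most part. The order of S2 and S3 depended on the scaling, as given below. Of the 75, 63 had their highest value in S1 and 12 in S3, while S2 was the lowest segment for 59, S3 for 12 and S1 for 4. The order S1, S3, S2 from high to low was followed by 51 subunits, the order S1, S2, S3 by 12, the order S3, S1, S2 by 8 and the order S3, S2, S1 by 4. Their median level was 1074 TPM in S1, 753.9 TPM in S2 and 813.6 TPM in S3. In bulk RNA of this kind, fewer cells of a type and less RNA per cell cannot be told apart.

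**Figure D1:**
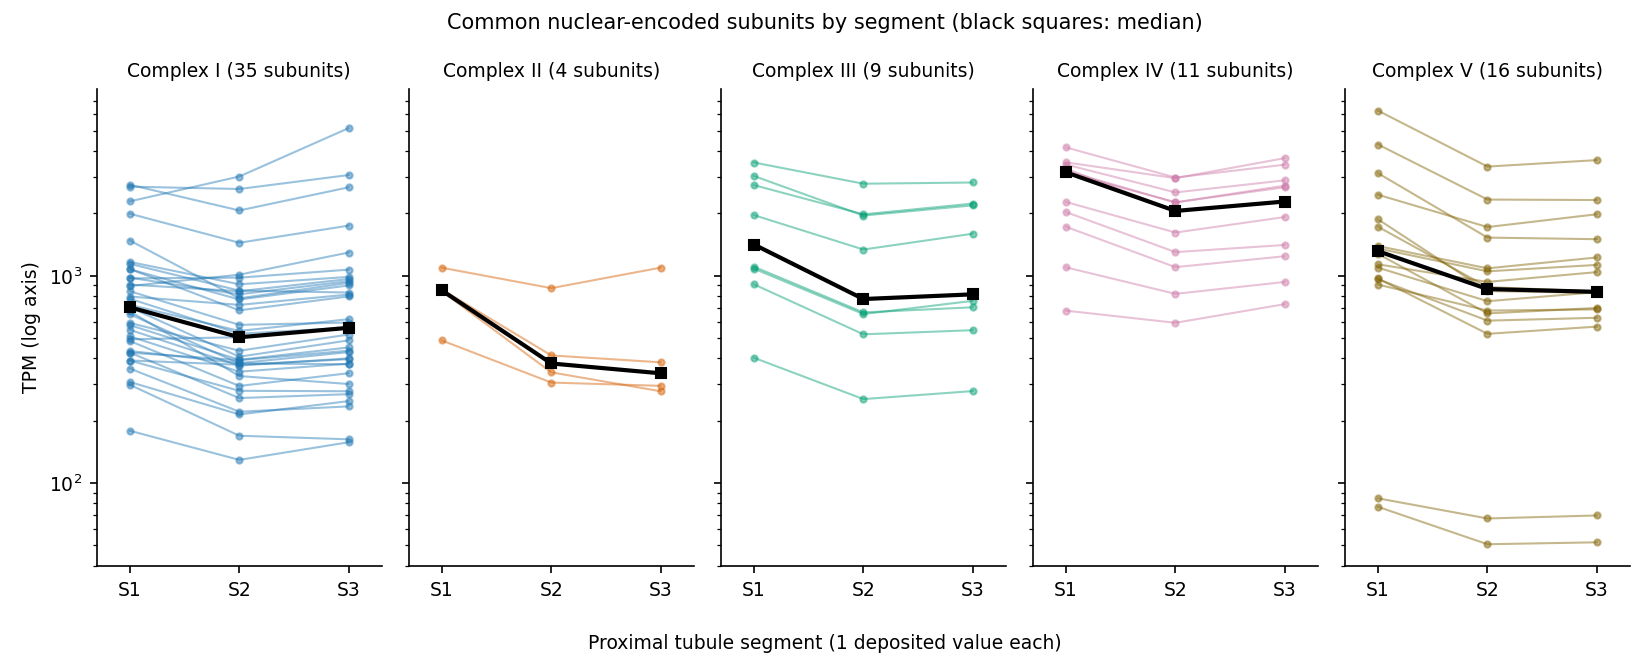
TPM (log axis) of the 75 common subunits in S1, S2 and S3, with 1 panel for each complex, 1 coloured line for each subunit and black squares for the median of the complex. The median of every complex is highest in S1 (704 TPM in complex I, 850 TPM in complex II, 1415 TPM in complex III, 3154 TPM in complex IV and 1314 TPM in complex V), and the line that reaches 5157 TPM in S3 in complex I is Ndufb8.

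Differences between segments are given on the log2(TPM + 1) scale, where a pseudocount of 1 understates the change of low genes, and a difference of at least 1 in size is called 2-fold. The table holds 16053 genes with at least 1 TPM in at least 1 segment, and 85 of the 90 members pass that filter. For S1 minus S2, the common subunits were shifted upward together by less than 2-fold: 71 of 75 were above 0, with a median of 0.52, and 5 were at least 2-fold higher and 0 at least 2-fold lower. Over the 85 members the median was 0.52, beside -0.18 for all genes compared and 0.07 for the 1347 genes of at least 100 TPM in mean. Among the members, 7 were at least 2-fold higher in S1 and 2 at least 2-fold lower, against 6.62% and 17.7% of all genes compared and 11.1% and 15.5% of the abundant genes. The 7 higher members are 8.24% of the 85, which lies near the background.

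That S1 over S2 shift kept its sign, but not its size, when the columns were rescaled. The members' median was 0.41 on totals without the mitochondrially encoded genes, Gpx3 and Kap, 0.36 after quantile normalization and 1.23 after scaling by the median of ratios, which also moved the median of all genes from -0.18 to 0.40. Relative to all genes, the members' median was 0.69 higher as deposited, and 0.69, 0.33 and 0.83 higher under those scalings. This distance also depended on the low genes among all genes. With a filter of at least 5 TPM, all genes compared had a median of 0.03 and the members' median was 0.50 higher. The calls split into 7 higher and 2 lower as deposited, 4 and 2 without the mitochondrially encoded genes, Gpx3 and Kap, 3 and 1 after quantile normalization and 66 and 1 after the median of ratios. For each of the 7 endothelial markers the S1 value was below the S2 value by 2-fold or more, and their part in the members' difference was not tested.

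For S1 minus S3, 63 of the 75 common subunits were above 0, with a median of 0.39, 6 at least 2-fold higher and 1 at least 2-fold lower. All genes compared had a median of -0.01 and the abundant genes one of -0.07. Among the 85 members, 9 were at least 2-fold higher in S1 and 3 at least 2-fold lower, against 10.5% and 13.1% of all genes compared and 14.8% and 18.2% of the abundant genes. This split was 12 and 1 after the median of ratios.

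For S2 minus S3, 12 of the 75 common subunits were above 0 and 63 below, with a median of -0.15. The abundant genes were close to this, with a median of -0.14 and 33.0% above 0. All genes compared had a median of 0.12 and 60.0% above 0. After quantile normalization 39 of the 75 subunits were above 0 and their median was 0.0046. After the median of ratios 0 of the 75 were above 0 and their median was -0.67. Neither the direction nor the size was thus independent of the scaling. No common subunit reached 2-fold as deposited, and Ndufb8 did so after the median of ratios (-1.29). Among the 85 members, 1 was at least 2-fold higher in S2 (Cox6b2) and 1 at least 2-fold lower (Cox8b), against 8.74% and 2.24% of all genes compared and 5.86% and 2.38% of the abundant genes. The median of S1 against either of them kept its direction under the scalings tried.

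**Figure D2:**
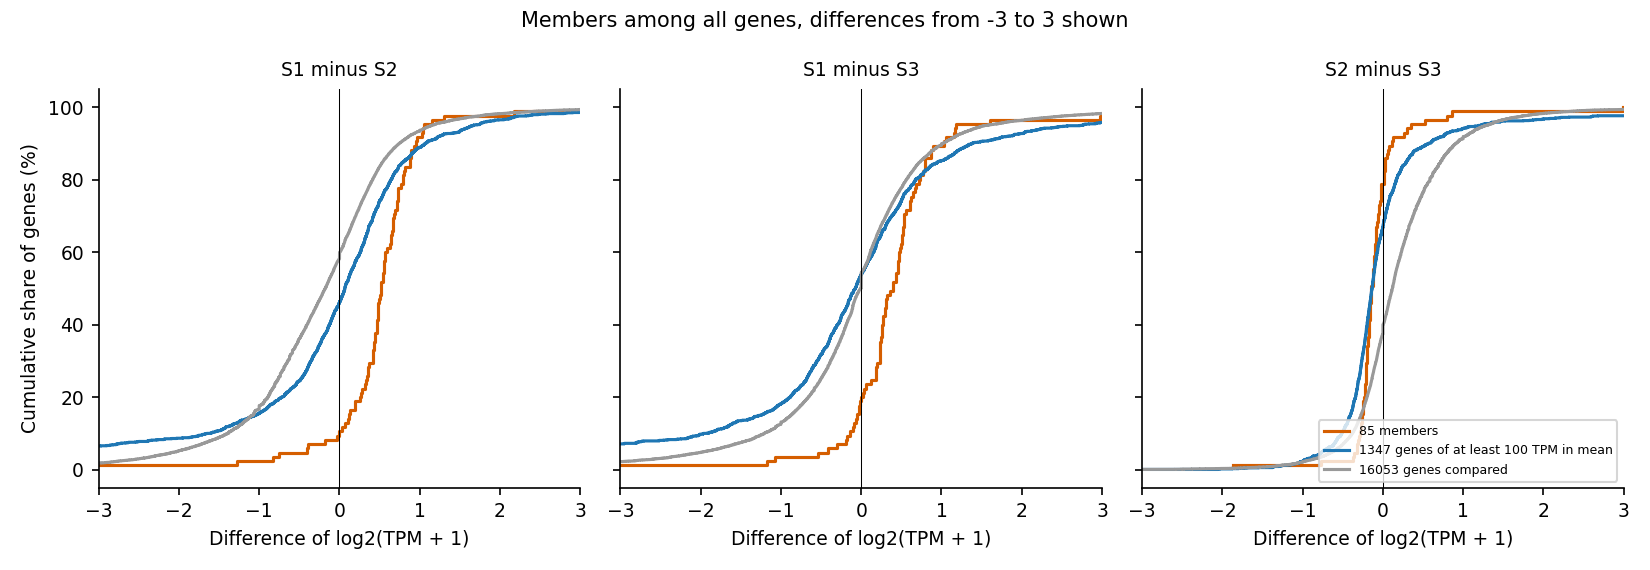
Cumulative share of genes (%) by their difference of log2(TPM + 1), in 1 panel for each pair of segments, for the 85 members (orange), the 1347 genes of at least 100 TPM in mean (blue) and all 16053 genes compared (grey). The members' curve lies to the right of both others over most of its range for S1 minus S2 (median 0.52, against 0.07 and -0.18) and S1 minus S3 (median 0.39, against -0.07 and -0.01), and close to the blue curve for S2 minus S3 (median -0.14, against -0.14 and 0.12).

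The complexes differed in how far S1 stood above the other segments. The median S1 minus S2 difference was 0.47 in complex I, 0.86 in complex II, 0.66 in complex III, 0.48 in complex IV and 0.63 in complex V. The median S1 minus S3 difference was 0.26, 0.94, 0.52, 0.24 and 0.59 in complexes I to V. Every complex kept a median above 0 in both contrasts under all scalings tried, and complex II had the highest of the 5 medians in each case. Complex II rests on 4 genes, however, and 1 of them, Sdhb, did not share the difference from S3.

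**Figure D3:**
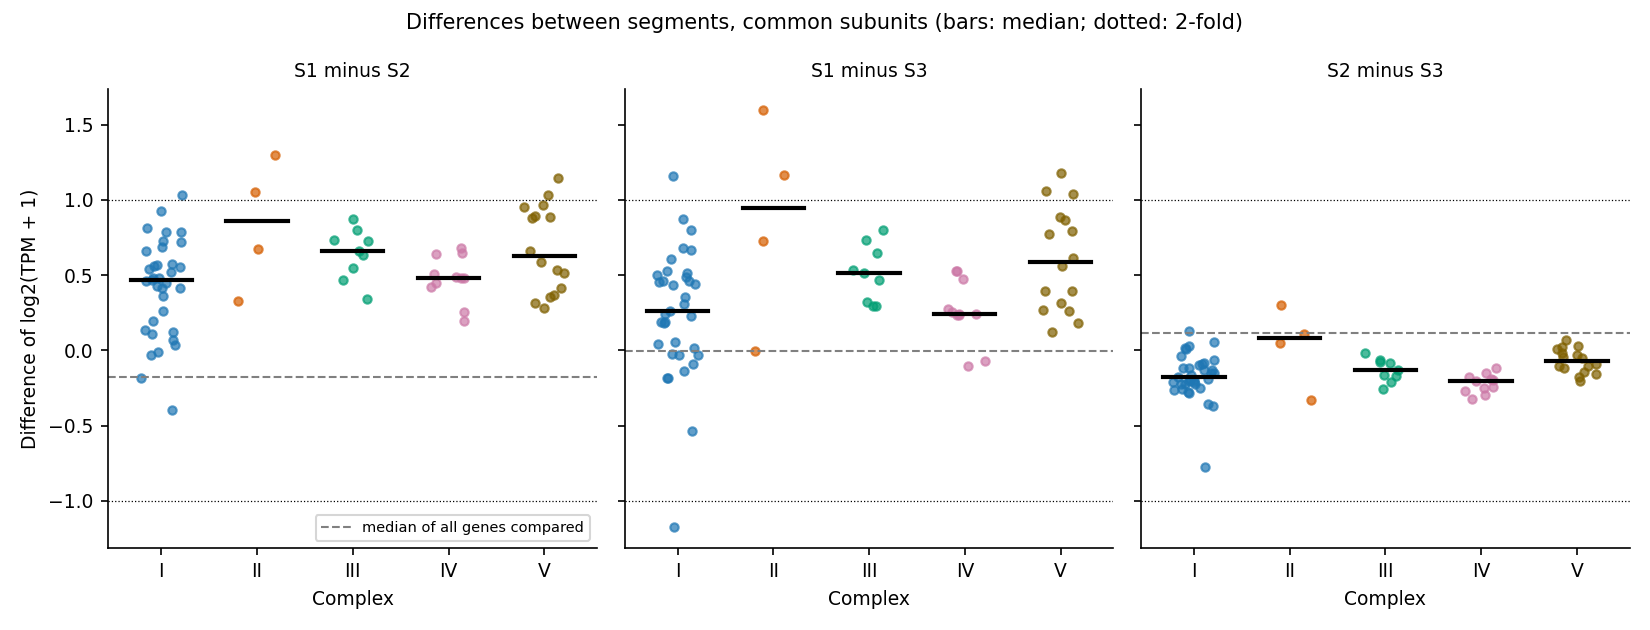
Difference of log2(TPM + 1) for each of the 75 common subunits (points) by complex, in 1 panel for each pair of segments, with the median of the complex as a black bar, the median of all genes compared as a dashed line and 2-fold as dotted lines. The bars lie above the dashed line in all 5 complexes for S1 minus S2 and S1 minus S3, with complex II highest at 0.86 and 0.94.

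Complex II, succinate dehydrogenase, is shared by the chain and the tricarboxylic acid cycle. Sdha, the flavoprotein that oxidises succinate, had 841.5 TPM in S1, 342.1 TPM in S2 and 277.2 TPM in S3. Its level in S1 was 2.46 times that in S2 and 3.04 times that in S3, the largest S1 over S3 ratio of any common subunit, and it stayed past 2-fold in both contrasts under all scalings tried.

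Sdhd, which anchors the enzyme in the membrane, had 857.6 TPM in S1, 412.8 TPM in S2 and 382.4 TPM in S3. Sdhc, the other anchor, had 487.4 TPM in S1, 305.4 TPM in S2 and 294.5 TPM in S3. Both anchors were highest in S1 and nearly level between S2 and S3, and Sdhd alone of the pair was past 2-fold, at a difference of 1.05 from S2 and 1.16 from S3. The call for Sdhd against S2 is a narrow one and was lost on totals without the mitochondrially encoded genes, Gpx3 and Kap and after quantile normalization. It was also lost after the median of ratios over genes of at least 10 TPM in every segment.

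Sdhb, the iron-sulphur subunit that carries the electrons from the flavoprotein to ubiquinone, went another way. It had 1093 TPM in S1, 871.6 TPM in S2 and 1095 TPM in S3, so S1 and S3 were level and S2 was lowest. The mRNAs of one enzyme thus stood in different proportions along the tubule, with more Sdhb than Sdha in all 3 segments and the gap widest in S3.

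The promoters of Sdha and Sdhd are shown because these 2 complex II genes carried the largest differences of the complex. They are the 250 bases before the RefSeq start in GRCm38.p6, on the minus strand, at chr13:74350241-74350490 for Sdha and chr9:50603850-50604099 for Sdhd, and capitals mark letters of the motifs searched.

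Sdha: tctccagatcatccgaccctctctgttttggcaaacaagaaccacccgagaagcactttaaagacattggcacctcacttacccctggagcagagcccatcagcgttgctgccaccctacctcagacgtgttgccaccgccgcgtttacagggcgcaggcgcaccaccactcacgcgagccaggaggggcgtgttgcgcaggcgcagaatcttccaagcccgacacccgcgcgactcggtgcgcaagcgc
Sdhd: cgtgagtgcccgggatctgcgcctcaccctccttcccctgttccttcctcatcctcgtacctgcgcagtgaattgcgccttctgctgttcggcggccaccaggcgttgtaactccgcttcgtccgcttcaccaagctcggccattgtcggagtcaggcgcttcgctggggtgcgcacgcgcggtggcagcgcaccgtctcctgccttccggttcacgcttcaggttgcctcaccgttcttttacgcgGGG

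Both stretches are rich in G and C, at 61.6% in Sdha and 64.4% in Sdhd. None of the 5 motifs was found for Sdha within the 300 bases searched, which run to 50 bases after the start. Sdhd holds a GC box that begins 3 bases before the start and runs past it, and the ERR letters, reversed, 37 bases after the start. Sdha lies at chr13:74322255-74350240, 76 bases from Ccdc127, and Sdhd at chr9:50596340-50603849, 51 bases from Timm8b. Ccdc127 covers chr13:74350317-74365783 and Timm8b chr9:50603901-50605320, so most of each printed stretch also lies within the neighbouring gene.

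Complex I is the NADH dehydrogenase and the complex with the most subunits. Of its 35 nuclear subunits, 31 were above 0 for S1 minus S2 and 26 for S1 minus S3. The 7 core subunits, which hold the flavin and the iron-sulphur clusters, had medians of 0.69 against S2 and 0.53 against S3, and the 28 accessory subunits had medians of 0.46 and 0.25. Core subunits were not uniform, since Ndufs1 differed by 0.81 and Ndufv1 by 0.12 between S1 and S2.

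Ndufc2, an accessory subunit of the membrane arm, had the largest S1 over S2 difference of complex I, with 673.8 TPM in S1, 328.2 TPM in S2 and 300.6 TPM in S3. Ndufb4, another accessory subunit of that arm, had the lowest mean level of the complex, with 178.8 TPM in S1, 129.4 TPM in S2 and 157.4 TPM in S3. Both were highest in S1, but only Ndufc2 was past 2-fold. Its call against S2 (1.04) was lost on totals without the mitochondrially encoded genes, Gpx3 and Kap and after quantile normalization. That call was also lost after the median of ratios over genes of at least 10 TPM in every segment. The call of Ndufc2 against S3 (1.16) was kept in each of these.

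Ndufb8, an accessory subunit of the membrane arm, ran against the rest. It was the most abundant complex I mRNA in the mean, with 2286 TPM in S1, 3011 TPM in S2 and 5157 TPM in S3, so that it climbed toward S3 while most of its partners were highest in S1. Its S1 minus S3 difference was -1.17, an S3 level 2.26 times the S1 level, and Ndufb8 was the only common subunit for which S1 lay below S3 by 2-fold or more. That difference stayed between -0.98 and -1.38 under all scalings tried, whereas its S1 minus S2 difference of -0.40 turned to 0.32 after the median of ratios. Another 8 complex I subunits were also highest in S3 as deposited, where 26 of the 35 were higher in S1 than in S3. That count was 25 on totals without the mitochondrially encoded genes, Gpx3 and Kap and 27 after quantile normalization. It was 23 after the median of ratios over genes of at least 10 TPM in every segment, but 33 after the median of ratios. The 8 were Ndufa2, Ndufa3, Ndufa7, Ndufb7, Ndufb11, Ndufs7, Ndufv1 and Ndufv3, of which Ndufa7 had the largest difference from S1, at 892.5 TPM in S1, 1012 TPM in S2 and 1295 TPM in S3.

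The Ndufb8 promoter is shown as that of the common subunit with the opposite slope. It covers the 250 bases before the start on the minus strand, chr19:44555443-44555692 in GRCm38.p6, and the capitals mark its GC box, reversed, 75 bases before the start, the only match to the 5 motifs in its window.

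Ndufb8: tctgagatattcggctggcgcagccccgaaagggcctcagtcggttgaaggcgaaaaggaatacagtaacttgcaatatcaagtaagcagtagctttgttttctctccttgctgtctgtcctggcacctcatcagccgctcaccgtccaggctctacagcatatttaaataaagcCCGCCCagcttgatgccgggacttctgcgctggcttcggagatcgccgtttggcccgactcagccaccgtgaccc

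The gene lies at chr19:44548571-44555442 and no other RefSeq gene overlaps it. Processed copies of subunit genes are common in mammalian genomes, and the sources used here do not say how reads shared with such copies were divided, so the levels of single subunits carry that uncertainty.

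Complex III, the cytochrome bc1 complex, moved as a block within a narrow range. All 9 nuclear subunits were higher in S1 than in S2 and S3, none past 2-fold, and all 9 were lowest in S2, an order that did not hold under all scalings, as 4 were higher in S2 than in S3 after quantile normalization. The electron-carrying and core proteins (Cyc1, Uqcrfs1, Uqcrc1 and Uqcrc2) had a median S1 minus S2 difference of 0.73, and the 5 small subunits one of 0.55. Uqcrh, the hinge protein beside cytochrome c1, had the largest difference from S2 (0.87), with 1415 TPM in S1, 772.3 TPM in S2 and 813.6 TPM in S3. Uqcr11, the smallest difference (0.34), was also the most abundant mRNA of the complex, with 3518 TPM in S1, 2780 TPM in S2 and 2818 TPM in S3. Uqcrc2, a core protein of the matrix side, was the least abundant, with 402.1 TPM in S1, 254.2 TPM in S2 and 277.8 TPM in S3. Across these genes, which differ several-fold in level, S1 stood above both other segments.

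Complex IV, cytochrome c oxidase, had the highest median level of the 5 complexes in every segment, at 3154 TPM in S1, 2054 TPM in S2 and 2281 TPM in S3. All 11 common subunits were higher in S1 than in S2, and 9 were higher in S1 than in S3. Cox6c, a small membrane subunit, had the largest S1 minus S2 difference (0.68), with 3288 TPM in S1, 2054 TPM in S2 and 2281 TPM in S3. Cox7c, another small membrane subunit, had the smallest (0.19) and the lowest mean level, with 678.7 TPM in S1, 593.1 TPM in S2 and 729.8 TPM in S3. Cox7c and Cox8a were thus highest in S3, though by little, and after the median of ratios both were higher in S1 than in S3. Under the other scalings tried, 9 of the 11 common subunits were again higher in S1 than in S3.

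Complex V, the ATP synthase, had all 16 subunits higher in S1 than in S2 and S3. Within the enzyme, the 5 subunits of the catalytic F1 head had a median S1 minus S2 difference of 0.90, the 3 genes of the rotating c ring 0.88, the 4 subunits of the peripheral stalk 0.60 and the 4 small membrane subunits 0.50. The F1 head was itself divided. Atp5a1, Atp5b and Atp5c1, the alpha, beta and gamma subunits, differed by 0.96, 0.90 and 0.95, while Atp5d and Atp5e, the small delta and epsilon subunits of the central stalk, differed by 0.36 and 0.37.

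Atp5b, the catalytic beta subunit, was the most abundant member of all, with 6256 TPM in S1, 3362 TPM in S2 and 3613 TPM in S3. Atp5a1, the alpha subunit, had 1723 TPM in S1, 882.3 TPM in S2 and 839.5 TPM in S3, and was past 2-fold against S3 alone (1.04), a call lost after quantile normalization and after the median of ratios over genes of at least 10 TPM in every segment. Atp5mpl, a small proteolipid of the membrane part, had 3124 TPM in S1, 1528 TPM in S2 and 1501 TPM in S3, just past 2-fold against both. Both calls were lost after quantile normalization and after the median of ratios over genes of at least 10 TPM in every segment, and that against S2 also on totals without the mitochondrially encoded genes, Gpx3 and Kap. All 3 were highest in S1, with S2 and S3 close together.

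Atp5j2 and Atp5l are small subunits of the membrane part. Atp5j2 had the smallest S1 minus S2 difference of the complex (0.28), with 1135 TPM in S1, 934.1 TPM in S2 and 1042 TPM in S3. Atp5l had the lowest mean level, with 76.8 TPM in S1, 50.7 TPM in S2 and 51.8 TPM in S3.

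The c ring is encoded by 3 genes whose mature proteins are alike. Atp5g1 had 1871 TPM in S1, 843.7 TPM in S2 and 826.8 TPM in S3. Atp5g3 had 4297 TPM in S1, 2331 TPM in S2 and 2319 TPM in S3. Atp5g2 had 84.4 TPM in S1, 67.5 TPM in S2 and 69.8 TPM in S3. Atp5g3 was thus the main c ring mRNA throughout, with 68.7%, 71.9% and 72.1% of the summed TPM of the 3 genes in S1, S2 and S3, and Atp5g1 made up 29.9%, 26.0% and 25.7%. Atp5g1 was past 2-fold against S2 (1.15) and S3 (1.18), and the call against S2 was lost after quantile normalization.

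Tissue isoforms of complex IV showed the widest differences of all members. Cytochrome c oxidase has small nuclear subunits for which mammals carry a second gene, used in heart and skeletal muscle (Cox6a2, Cox7a1 and, in rodents, Cox8b, which brown fat also uses), in lung (Cox4i2) or in testis (Cox6b2, Cox7b2 and Cox8c). Ndufa4l2 is a paralogue of Ndufa4 known to be induced by low oxygen. In every family the common isoform was the main mRNA in all 3 segments.

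Cox7a1 had 276.3 TPM in S1, 60.4 TPM in S2 and 34.4 TPM in S3. That is 4.57 times more in S1 than in S2 and 8.03 times more than in S3. Its partner Cox7a2 had 2029 TPM in S1, 1301 TPM in S2 and 1408 TPM in S3. Cox7a1 therefore made up 12.0%, 4.44% and 2.39% of the summed TPM of this pair in the order S1, S2, S3, and 12.0% was the highest share reached by any tissue isoform here.

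Cox8b ran the opposite way. It was listed at 0 TPM in S1 and had 44.0 TPM in S2 and 163 TPM in S3, and its level in S2 was 0.27 times that in S3. No fold is given against S1, since the depth behind the 0 is unknown. Its partner Cox8a had 3524 TPM in S1, 2956 TPM in S2 and 3694 TPM in S3, so Cox8b made up 0%, 1.47% and 4.23% of the summed TPM of the Cox8 genes in S1, S2 and S3.

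Cox6a2 was nearly limited to S1, with 24.3 TPM in S1, 0.2 TPM in S2 and a listed 0 in S3. Its partner Cox6a1, the most abundant mRNA of complex IV, had 4160 TPM in S1, 2977 TPM in S2 and 3435 TPM in S3. At its highest, Cox6a2 was 0.581% of the pair. The gene, at chr7:128205435-128206366, overlaps Itgad by 70 bases, and the labels name no strand marking, so reads from the shared bases cannot be assigned to one of them. Itgad itself had 0.8 TPM in S1, 0.1 TPM in S2 and a listed 0 in S3.

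Cox6b2 had 31.6 TPM in S1, 18.8 TPM in S2 and 1.5 TPM in S3. It was the only member past 2-fold above S3 in S2 with the pseudocount of 1, and with a pseudocount of 0.1 the low-level Cox6a2, Cox7b2 and Ndufa4l2 passed as well. Its partner Cox6b1 had 3440 TPM in S1, 2524 TPM in S2 and 2886 TPM in S3, and Cox6b2 was at most 0.910% of the pair, in S1.

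The other isoforms were close to absent from the table. Ndufa4l2 had 0.2 TPM in S1, 1.9 TPM in S2 and 0.6 TPM in S3, beside 3154, 2261 and 2673 TPM for Ndufa4 in S1, S2 and S3. Cox7b2 had 0.3 TPM in S1, 1.3 TPM in S2 and 0.6 TPM in S3, beside 1098, 818.0 and 933.4 TPM for Cox7b. Cox4i2 had 0.1 TPM in S1, 0.5 TPM in S2 and 0.1 TPM in S3, beside 3204, 2257 and 2722 TPM for Cox4i1. Cox8c was listed at 0 in S1 and had 0.3 TPM in S2 and 0.1 TPM in S3.

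**Figure D4:**
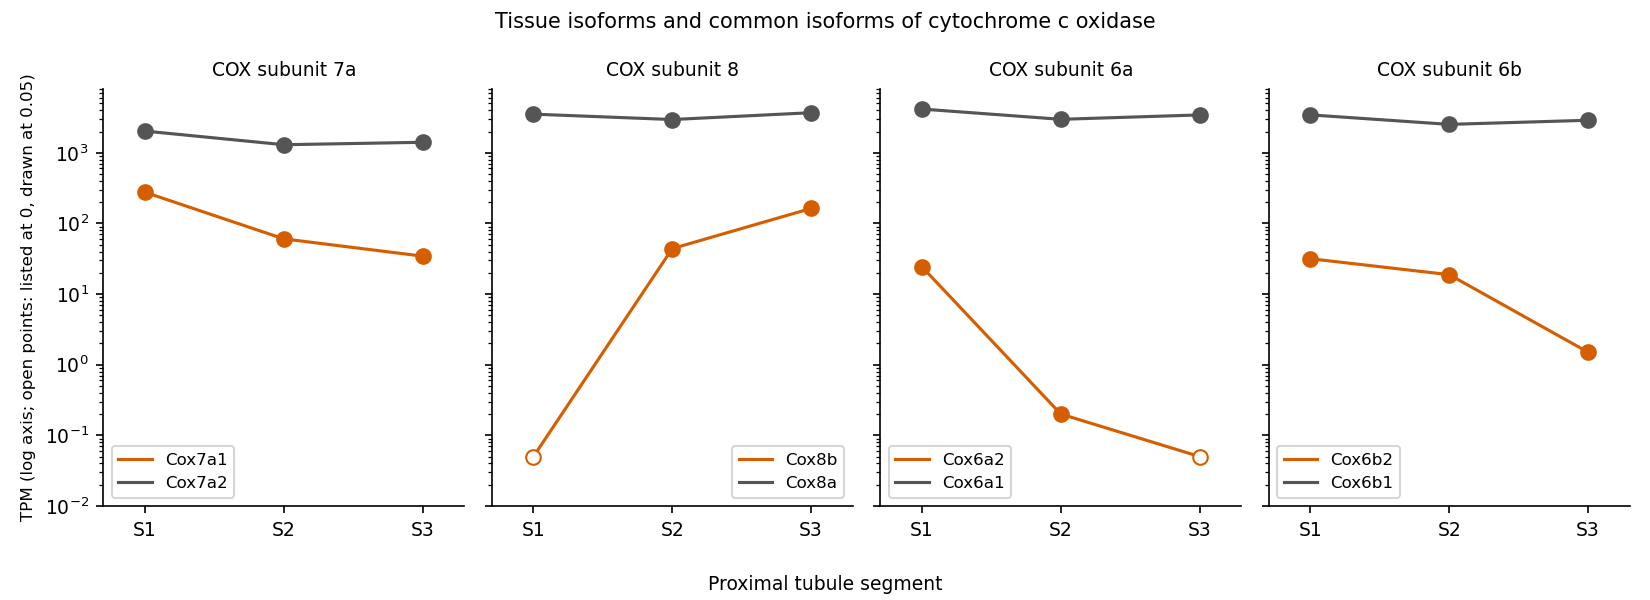
TPM (log axis) in S1, S2 and S3 of 4 tissue isoforms of cytochrome c oxidase (orange) and the common isoform of the same family (grey), with open points for values listed at 0, drawn at 0.05. Cox7a1, Cox6a2 and Cox6b2 are highest in S1 (276.3, 24.3 and 31.6 TPM), Cox8b is highest in S3 (163 TPM), and the grey lines stay above 1000 TPM.

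Markers of striated muscle and fat were measured in the same columns, and no list of lung or testis markers was used. The 6 striated muscle markers summed to 0.3 TPM in S1, 1.0 TPM in S2 and 0.4 TPM in S3. The 4 brown fat markers summed to 0.1 TPM in S1, 0.3 TPM in S2 and 0.2 TPM in S3, with Cidea at 0 in all 3. The 5 white fat markers summed to 10.0 TPM in S1, 101.4 TPM in S2 and 61.4 TPM in S3, nearly all of it from Fabp4, which endothelium also expresses, while Adipoq was listed at 0 in all 3. The defining markers of muscle and brown fat were thus near 0 in each segment in which Cox7a1, Cox6a2 or Cox8b was measured. Endothelial markers were highest in S2, whereas Cox8b was highest in S3 and Cox7a1 in S1. The part of other cell types in the isoform values was not tested.

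The promoters of Cox7a1 and Cox8b are shown because these isoforms had opposite slopes along the tubule. They cover the 250 bases before the start in GRCm38.p6, chr7:30183921-30184170 on the plus strand for Cox7a1 and chr7:140900447-140900696 on the minus strand for Cox8b, and hold no capitals because none of the 5 motifs was found in either 300-base window.

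Cox7a1: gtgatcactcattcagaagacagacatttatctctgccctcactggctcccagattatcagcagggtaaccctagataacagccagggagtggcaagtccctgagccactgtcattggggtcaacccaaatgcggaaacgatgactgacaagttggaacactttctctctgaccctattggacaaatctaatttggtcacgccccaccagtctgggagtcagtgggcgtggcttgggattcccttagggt
Cox8b: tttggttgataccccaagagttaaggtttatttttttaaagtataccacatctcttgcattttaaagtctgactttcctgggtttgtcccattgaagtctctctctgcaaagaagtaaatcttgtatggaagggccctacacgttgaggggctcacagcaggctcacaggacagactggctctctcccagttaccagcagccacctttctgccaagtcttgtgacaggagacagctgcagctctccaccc

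G and C made up 51.2% of the printed Cox7a1 bases and 47.2% of those of Cox8b. Cox7a1 lies at chr7:30184171-30186030, 903 bases from Capns1. Cox8b lies at chr7:140898942-140900446, 299 bases from Psmd13. No RefSeq gene overlaps either of them.

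The remaining members are not structural subunits of the common enzyme. Cox7a2l is known as a factor for supercomplexes of complexes III and IV, and its function in these mice was not measured. It had 78.7 TPM in S1, 45.7 TPM in S2 and 51.2 TPM in S3, an order shared with most subunits. Atp5s, which carries an ATP synthase symbol without being a structural subunit, had 19.8 TPM in S1, 34.1 TPM in S2 and 42.7 TPM in S3, and its S1 minus S3 difference of -1.07 shrank below 2-fold after the median of ratios. Cox6c2, a retained copy of Cox6c, had 6.0 TPM in S1, 3.9 TPM in S2 and 4.0 TPM in S3. Ndufs6b, a copy of Ndufs6, had 1.5 TPM in S1, 2.3 TPM in S2 and 1.6 TPM in S3.

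The threshold of 2-fold cuts through a continuous range. Just inside it for S1 minus S2 lay Atp5mpl (1.03), Ndufc2 (1.04) and Sdhd (1.05), and just outside lay Atp5a1 (0.96), Atp5c1 (0.95) and Ndufc1 (0.93). The calls of Atp5mpl, Ndufc2 and Sdhd were lost on totals without the mitochondrially encoded genes, Gpx3 and Kap and after quantile normalization. They were also lost after the median of ratios over genes of at least 10 TPM in every segment. Ndufc1, a small partner of Ndufc2 in the membrane arm, had 1479 TPM in S1, 778.3 TPM in S2 and 923.8 TPM in S3.

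Promoters of the members were searched for letters bound by factors known to act on respiratory genes. The letters were GCGCATGCG for NRF1, CCGGAAGT for ETS factors such as GABPA, TCAAGGTCA for estrogen-related receptors (ERR), AAGATGGCG for YY1 and GGGCGG for a GC box, on both strands, in 250 bases before and 50 after each start. The NRF1 letters overlap their own reverse, a promoter counts once for a motif, and letters of different motifs shared a base in 0 of the members' promoters. RefSeq had 71 such promoters for 66 members, and 32851 in all. NRF1 letters were in 8 member promoters (11.3%, against 1.75% of all promoters) and YY1 letters in 7 (9.86%, against 1.40%). ETS letters were in 5 (7.04%, against 3.89%), ERR letters in 2 (2.82%, against 0.423%) and a GC box in 27 (38.0%, against 35.7%). Member promoters were also richer in G and C, at a median of 57.3% against 52.7% in all promoters, and the part of this difference in the shares was not tested. Most member promoters held no NRF1, YY1, ETS or ERR letters of these exact spellings. Of the 4 tissue isoforms with a promoter entry, none held NRF1, YY1, ETS or ERR letters.

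The NRF1 sites that lie wholly before the start, and the 1 ERR site that does, are shown with the bases around them, 5′ to 3′ on the strand of the gene, with the matched letters in capitals. They belong to genes of complexes I, IV and V.

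Atp5g2 NRF1: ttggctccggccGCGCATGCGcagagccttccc
Atp5k NRF1: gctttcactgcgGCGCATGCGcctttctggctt
Atp5l NRF1: aaccaataaCGCATGCGCatttcccccact
Cox6a1 NRF1: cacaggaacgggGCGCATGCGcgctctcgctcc
Ndufa11 NRF1: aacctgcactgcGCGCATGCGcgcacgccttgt
Ndufa8 NRF1: cgtcgctggagaCGCATGCGC
Atp5g3 ERR: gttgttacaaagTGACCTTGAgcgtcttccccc

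In GRCm38.p6 these are chr15:102671069-102671101 (minus strand) for Atp5g2, chr5:108434429-108434461 (minus) for Atp5k, chr9:44920963-44920992 (minus) for Atp5l, chr5:115349100-115349132 (minus) for Cox6a1, chr17:56717690-56717722 (plus) for Ndufa11, chr2:36049339-36049359 (minus) for Ndufa8 and chr2:73911358-73911390 (minus) for Atp5g3. The YY1 letters began 23 to 36 bases after the start in Ndufc1, Ndufs7, Ndufa9, Ndufs6, Ndufs4 and Atp5j2, and 88 bases before it in Atp5j. The starts behind the Atp5g3 ERR site and the Atp5j YY1 site lie inside these genes. Both sites are therefore within the RefSeq gene spans, chr2:73908447-73912464 for Atp5g3 and chr16:84827871-84835857 for Atp5j. Genes with NRF1 letters covered a wide span of levels, as Cox6a1 at 4160 TPM in S1 and Atp5l at 76.8 TPM in S1 both held them.

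The mitochondrially encoded subunits had the opposite order to the nuclear ones. Of the 13 protein genes of mitochondrial DNA, 7 had values and 6 were listed at 0 in all 3 segments (mt-Nd3, mt-Nd4l, mt-Co2, mt-Co3, mt-Atp6 and mt-Atp8). The 7 summed to 53287 TPM in S1, 127065 TPM in S2 and 78276 TPM in S3. Each of the 7 had less in S1 than in S2 (median difference -1.12), a sign kept by all 7 under the scalings tried that keep these genes. For S2 minus S3 all 7 were above 0 as deposited, 5 were so after the median of ratios and 4 after quantile normalization, so that part of the order depended on the scaling. mt-Co1, the catalytic subunit of complex IV, had 9619 TPM in S1, 26268 TPM in S2 and 15468 TPM in S3. mt-Cytb, the cytochrome b of complex III, had 16706 TPM in S1, 36665 TPM in S2 and 17714 TPM in S3.

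The balance of the measured mRNAs differed between segments. The summed mitochondrially encoded TPM was 0.494 times the summed TPM of the 75 common nuclear subunits in S1, 1.69 times in S2 and 0.907 times in S3. In complex I the ratio was 0.870, 2.56 and 1.49 in S1, S2 and S3, in complex III 1.03, 3.36 and 1.49, and in complex IV 0.337, 1.28 and 0.647. These ratios do not depend on how the columns are scaled to each other by a common factor. They leave out the genes listed at 0.

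**Figure D5:**
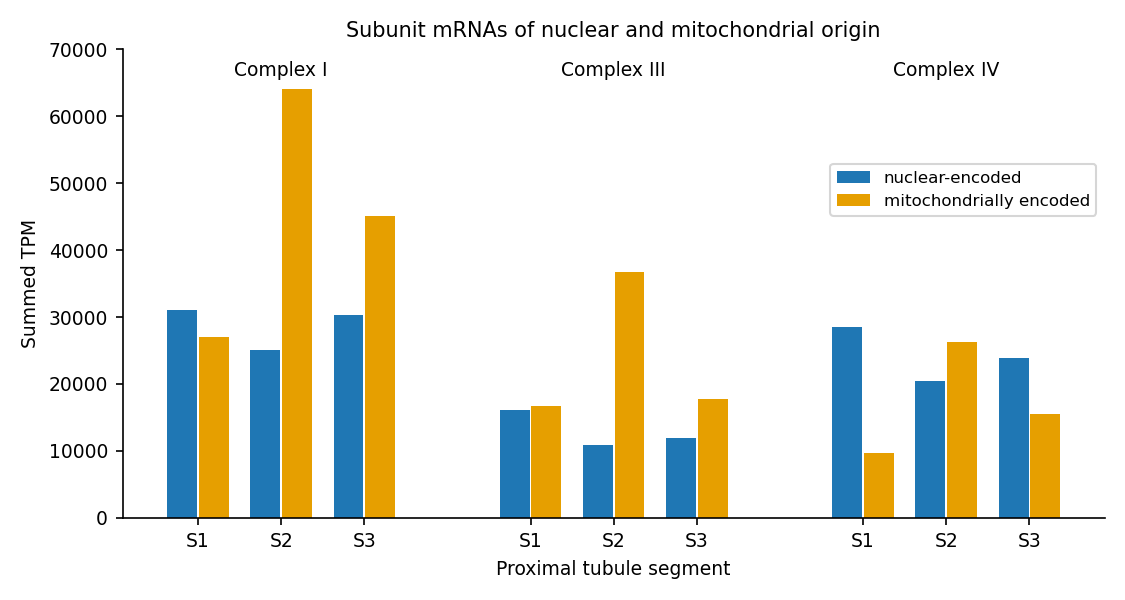
Summed TPM (bars from 0) of the nuclear-encoded common subunits (blue) and of the mitochondrially encoded subunits with a value (yellow) of complexes I, III and IV in S1, S2 and S3. The blue bars are lowest in S2 (25010, 10917 and 20459 TPM) and the yellow bars are highest in S2 (64132, 36665 and 26268 TPM).

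Assembly factors, which build the complexes without staying in them, had smaller median differences between segments than the subunits had. These medians are of signed differences, in which rises and falls cancel, so they do not measure how far single factors differed. Of 53 in the table, S1 exceeded S2 by 2-fold or more in 0 and lay below it in 1, beside 6.62% and 17.7% of all genes compared, with a median difference of 0.22 and 32 of 53 above 0. Against S3, S1 was past 2-fold above in 1 and below in 2, the median was 0.07 and 29 of 53 were above 0, beside 10.5% and 13.1% of all genes compared past 2-fold. The 4 factors of complex II had a median of -0.13 against S2, with 1 of 4 above 0. Acad9, a flavoprotein needed to assemble complex I, had 48.2 TPM in S1, 147.4 TPM in S2 and 197.9 TPM in S3, and Ndufaf6, another assembly factor of complex I, had 52.2 TPM in S1, 81.1 TPM in S2 and 120.6 TPM in S3. Both were higher toward S3, against the order of most complex I subunits. Lrpprc, which stabilises mitochondrial mRNAs, had 41.4 TPM in S1, 20.6 TPM in S2 and 17.7 TPM in S3.

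Electron carriers were mixed. Of 14 that passed the filter, S1 exceeded S2 by 2-fold or more in 2 and lay below it in 0, and the counts against S3 were 3 and 1. The shares over all genes compared were 6.62% and 17.7% against S2, and 10.5% and 13.1% against S3. Cycs, the somatic cytochrome c, had 323.1 TPM in S1, 111.0 TPM in S2 and 101.7 TPM in S3. Coq8a, a kinase-like protein of ubiquinone synthesis, had 218.5 TPM in S1, 82.6 TPM in S2 and 57.7 TPM in S3. Both were highest in S1, like the subunits they serve. Etfb, which brings electrons from fatty acid oxidation toward ubiquinone, had 882.2 TPM in S1, 1752 TPM in S2 and 1881 TPM in S3, the reverse order.

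Genes of mitochondrial import, carriers and membrane shape had a median S1 minus S2 difference of 0.50 over 22 genes, of which 2 were at least 2-fold higher and 0 lower. For S1 minus S3 the median was 0.42, with 3 higher and 0 lower. All genes compared had 6.62% higher and 17.7% lower against S2, and 10.5% and 13.1% against S3. Slc25a4, the ADP/ATP carrier of heart and muscle, had 888.3 TPM in S1, 176.8 TPM in S2 and 130.9 TPM in S3, the largest difference of this list (2.32 against S2). Slc25a5, the more widespread ADP/ATP carrier, had 2373 TPM in S1, 1426 TPM in S2 and 1223 TPM in S3. Slc25a4, Cox7a1 and Cox6a2, all known from muscle, were highest in S1, whereas Cox8b was highest in S3.

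Among 18 regulators that passed the filter, S1 exceeded S2 by 2-fold or more in 2 (Ppargc1a and Ppara) and lay below it in 2 (Gabpb1 and Epas1). The counts against S3 were 2 and 1. Over all genes compared the shares were 6.62% and 17.7% against S2, and 10.5% and 13.1% against S3. Ppara, a nuclear receptor for fatty acids, had 96.7 TPM in S1, 37.5 TPM in S2 and 21.8 TPM in S3. Esrra, an estrogen-related receptor, had 49.8 TPM in S1, 29.5 TPM in S2 and 24.6 TPM in S3. Gabpb1, a partner of the ETS factor GABPA, had 8.1 TPM in S1, 26.0 TPM in S2 and 33.8 TPM in S3, the reverse order. Nrf1 had 12.2 TPM in S1, 10.4 TPM in S2 and 8.6 TPM in S3, and Yy1 had 3.5, 4.9 and 5.1 TPM, both with differences below 2-fold.

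Of 6 related subunits and factors outside the symbol rule, 0 differed by 2-fold or more between S1 and S2. All genes compared had 6.62% higher and 17.7% lower there, and 10.5% and 13.1% between S1 and S3. Between S1 and S3, 1 of the 6 differed by 2-fold or more, with the lower value in S1. That gene was Atpif1, whose protein binds the F1 head and stops it from running backwards, with 1486 TPM in S1, 2457 TPM in S2 and 3961 TPM in S3. It ran against the F1 subunits it binds and along with Ndufb8. Ndufab1, the acyl carrier protein of complex I, had 481.5 TPM in S1, 374.3 TPM in S2 and 438.7 TPM in S3, which is the order of most subunits.

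Of 6 mitophagy and uncoupling genes that passed the filter, S1 exceeded S2 by 2-fold or more in 0 and lay below it in 1. The counts against S3 were 0 and 2. Over all genes compared the shares were 6.62% and 17.7% against S2, and 10.5% and 13.1% against S3. Ucp2, a carrier related to the brown fat uncoupler, had 7.6 TPM in S1, 150.1 TPM in S2 and 72.0 TPM in S3. Bnip3l, a receptor that marks mitochondria for degradation, had 53.5 TPM in S1, 86.8 TPM in S2 and 180.1 TPM in S3. Ucp2 is also expressed by immune cells, whose summed markers were higher in S2 and S3 than in S1, mostly through Csf1r. The summed endothelial markers, at 67.6 TPM in S1, 633 TPM in S2 and 253.5 TPM in S3, had the same order as Ucp2. The pan-leukocyte marker Ptprc had 0.5 TPM in S1, 2.5 TPM in S2 and 0.4 TPM in S3. The part of immune or endothelial cells in the Ucp2 values was not tested.

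The genes whose profile over the 3 segments lay nearest to the median centred profile of the members were looked for among 1226 non-members of at least 100 TPM in mean. By Euclidean distance on the centred log2(TPM + 1) values they were Poldip2 (0.030), Cript (0.031), Copz1 (0.034), Cct5 (0.038) and Acbd4 (0.040). Poldip2 had 165.0 TPM in S1, 111.4 TPM in S2 and 124.0 TPM in S3. With only 3 points for each profile, likeness of this kind describes the order and size of the differences and nothing else.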

How the data were processed

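Gene expression was measured by RNA-seq in S1, S2 and S3 segments of female mice (6, 6 and 7 libraries). The authors deposited TPM, rounded to 1 decimal, as 1 value per gene and segment. The sources used here do not say how libraries were combined, and TPM keeps no depth. Per the labels' protocols, a low-input cDNA kit with PCR and tagmentation was used, and no strand marking or molecular identifiers are named. Per the submitters' processing notes, mm10 was the build, and cutadapt, STAR and RSEM were among the tools. Of 8 value columns, 5 match no labelled group and were not used. The 24 ATAC-seq libraries and protein sequences were not analysed here.

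Genes with at least 1 TPM in at least 1 segment were compared by differences of log2(TPM + 1) (pandas 2.3.3, Python 3.11.15) and called at 2-fold, with no test across libraries. The code that makes the calls was checked on simulated data. Members were named if 2-fold different between any 2 segments, in a tissue isoform family, in complex II, or extreme in level or S1 minus S2 difference within their complex. Other subunits named as examples, and genes named from the 11 pathway lists, were chosen after their values were seen. The members, the 26 gene lists and the tests were chosen with earlier results of these data known. Coordinates and promoters are from RefSeq, GRCm38.p6 (88 of 90 members had a position). Alternatives were another pseudocount, filter, threshold and scaling.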

Additional observations from a re-analysis of the deposited data

How the results depend on the processing

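No paired analysis was possible because the table holds 1 value per gene and segment. No library could be left out for the same reason. The protein comparison of isoforms was not run. As deposited, the count of members at least 2-fold different was 9, 12 and 2 in the contrasts S1 minus S2, S1 minus S3 and S2 minus S3, taken in that order below too, and the members' median difference was 0.52, 0.39 and -0.14. With a pseudocount of 0.1, the S2 minus S3 count was 5. At a 1.5-fold threshold the counts were 38, 27 and 5. Scaling by the median of ratios gave 67 calls for S1 minus S2 and quantile normalization 4. The medians were 0.53, 0.42 and -0.15 with a filter of at least 5 TPM, 0.50, 0.32 and -0.13 with no filter, and 0.41, 0.36 and -0.070 on totals without the mitochondrially encoded genes, Gpx3 and Kap. They were 1.23, 0.59 and -0.66 after the median of ratios, and 0.36, 0.37 and 0.0046 after quantile normalization, which turned the sign of the last. The cause was not tested. The median of ratios was taken over 25489 genes above 0 in all 3 segments, of which 48.6% averaged under 1 TPM. Taken instead over the 5508 genes of at least 10 TPM in every segment, an alternative chosen after seeing the data, it gave medians of 0.40, 0.33 and -0.091. The other counts stayed within 1.5 times of those as deposited.

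Of the 23 single differences of at least 2-fold among the named members, none changed sign under any setting, and 3 fell below 2-fold on totals without the mitochondrially encoded genes, Gpx3 and Kap, 3 after the median of ratios, 5 after the median of ratios over genes of at least 10 TPM and 7 after quantile normalization. The lack of a value per library limits all of these results: a 2-fold difference here has a size but no error, and values listed at 0 have no detection limit.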
